A study of Mus musculus with 2 samples.

Results

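The cytochrome P450 genes of mouse liver were described across the liver's cell classes. Members were all rows of the deposited table whose gene symbol begins with Cyp and a digit, apart from Cyp26b1, which gave 72 of 22508 genes. They were measured by droplet-based single-cell RNA sequencing of livers of 8-week-old C57BL/6 mice. Per the labels, the livers were dissociated with enzymes, cells were taken from a Percoll gradient, and the libraries were made with a Chromium 3′ kit. The 2 samples, WT replicate 1 and WT replicate 2, carry the same labels and form 1 group, so the comparisons below are between classes of cells and not between conditions. No agent, allele or treatment other than the dissociation is named for either sample, and whether the samples came from separate animals is not stated.

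Cytochrome P450 enzymes are heme proteins that insert an oxygen atom into small lipophilic molecules, with electrons passed on by P450 reductase or, in mitochondria, by ferredoxin. Hepatocytes are known for the members of families 1 to 3 that oxidise drugs, toxins and steroids, for family 4 members that hydroxylate fatty acids and eicosanoids, and for the members that turn cholesterol into bile acids. Many of the drug-oxidising enzymes are known to lie mainly in the hepatocytes around the central vein, while a few members are known from endothelium, airway, skin or myeloid cells.

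Replicate 1 held 7362 cells and 40645060 UMIs (unique molecular identifiers, each marking 1 captured mRNA 3′ end), and replicate 2 held 2341 cells and 11867207 UMIs. After the filters 6757 cells (median 4722 UMIs) and 2329 cells (median 5009 UMIs) were left. Only 5 barcodes occurred in both libraries. The libraries stood apart in content: all 2329 cells of replicate 2 were stellate-like, and replicate 1, with every other class, held 10 stellate-like cells. No class therefore had 20 cells in both libraries, no test over replicates could be made, and all intervals below (95%) cover counting error only. Levels are CPM, the UMIs of a gene over all UMIs of the class times 1e+06, a count of molecules by their 3′ ends that is not scaled by transcript length. The 14 classes, named "-like" from marker genes after clustering without any P450 gene, ran from 27 neutrophil-like to 2864 sinusoidal endothelial-like cells.

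Members made up 15886 CPM (15690 to 16084) of all UMIs in the 228 hepatocyte-like cells. In the other classes they ran from 324 CPM in Kupffer-like cells to 1137 CPM in vascular endothelial-like cells. Hepatocyte-like cells were 2.51% of the kept cells and held 44.7% of the 55888 member UMIs, sinusoidal endothelial-like cells held 27.5%, stellate-like cells 10.1% and Kupffer-like cells 6.31%. The label of the hepatocyte-like cells was checked against markers: their 10 hepatocyte markers summed to 106738 CPM. Markers of other cells were present beside them, at 1525 CPM for the 8 sinusoidal endothelial markers (17976 CPM in their own class), 640 CPM for the 8 Kupffer markers (21464 CPM in their own class) and 34.3 CPM for the 9 stellate markers. The part of this mixture in the levels below was not tested.

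Of the 72 members, 56 had at least 20 UMIs over the kept cells and 16 had fewer, none of them 0. A member was called a hepatocyte gene if its CPM in hepatocyte-like cells was at least 2-fold above every other class, with a floor of 3 UMIs per class. It was called an other-cell gene if another class with at least 10 UMIs was at least 2-fold above hepatocyte-like cells, and shared otherwise. By this rule 28 members (50.0% of the 56) were hepatocyte genes, against 2.47% of the 17322 genes measured. Other-cell genes numbered 10 (17.9%, against 67.3% of all genes), and 18 were shared (32.1%, against 30.2%). In the 27 neutrophil-like cells 3 UMIs already stood for 45.6 CPM, which alone kept weakly read members out of the hepatocyte call. When only classes of at least 100 cells were compared, a choice made after seeing the data, 38 members were hepatocyte genes (67.9%, against 4.49% of all genes), 10 were other-cell genes (all genes: 65.6%) and 8 were shared. The sources given from here on are those of this second comparison. The 10 members that were shared in the first and hepatocyte genes in the second were Cyp3a13, Cyp4f15, Cyp7a1, Cyp2u1, Cyp2d37-ps, Cyp2c38, Cyp3a59, Cyp26a1, Cyp2c40 and Cyp2r1.

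**Figure D1:**
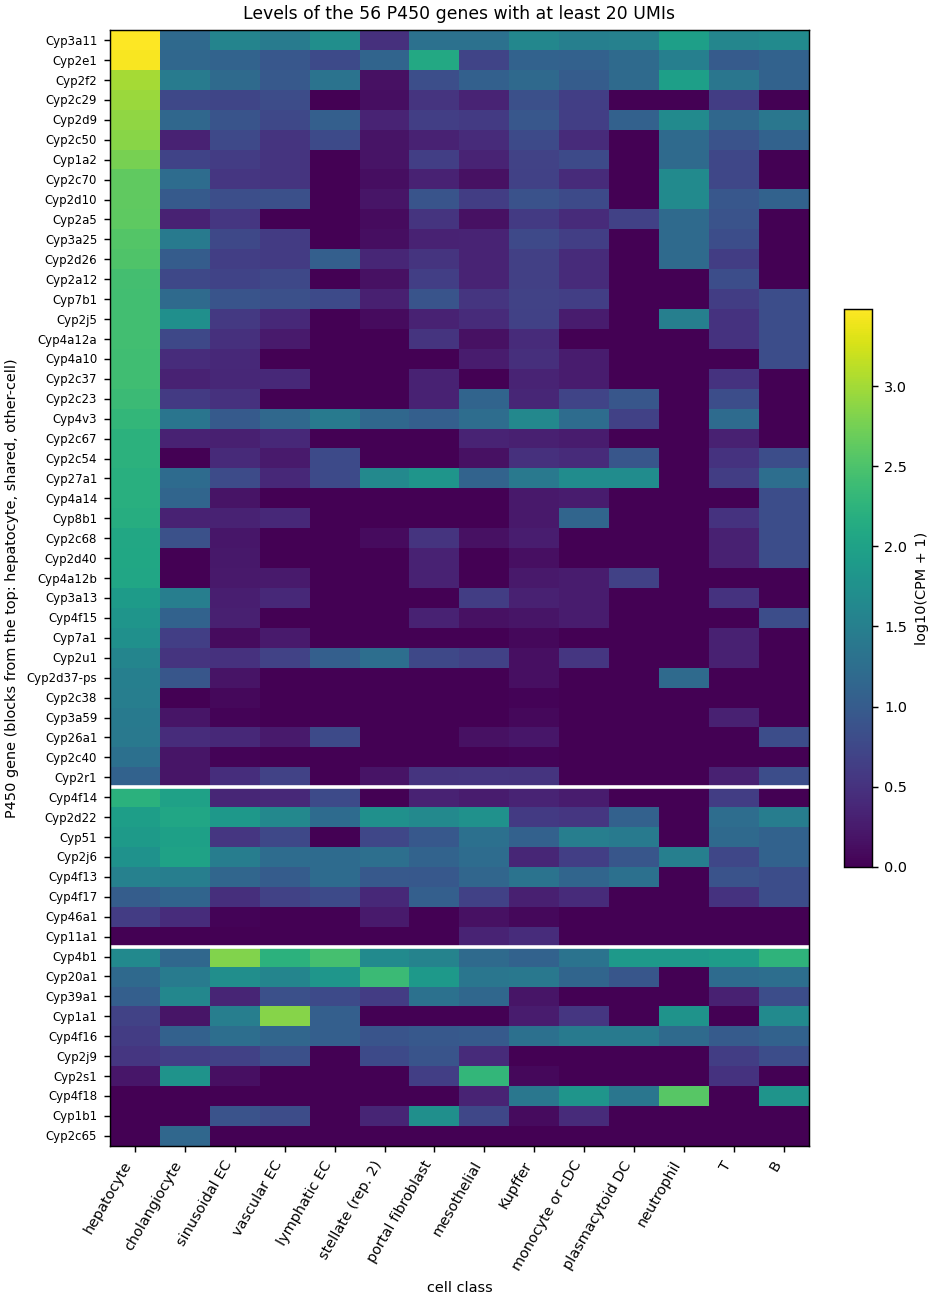
Level of each of the 56 measured P450 genes (rows) in each of the 14 cell classes (columns; EC, endothelial cells; DC, dendritic cells), as log10(CPM + 1). White lines part the 38 hepatocyte, 8 shared and 10 other-cell genes by the comparison of classes with at least 100 cells: the first block is bright in the hepatocyte column, up to 3016 CPM for Cyp3a11, and the last block has its bright cells in other columns.

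By role, the families of drug and toxin oxidation (Cyp1, Cyp2 without Cyp2r1, and Cyp3) had 43 members, of which 26 were hepatocyte genes, 5 other-cell genes, 2 shared and 10 under the minimum. The Cyp4 family of fatty acid and eicosanoid hydroxylases had 15 members, with 6 hepatocyte, 3 other-cell, 3 shared and 3 under the minimum. Of the 6 members listed for bile acids or cholesterol, 4 were hepatocyte genes, 1 was an other-cell gene and 1 was shared. The list held Cyp7a1, Cyp7b1, Cyp8b1, Cyp27a1, Cyp39a1 and Cyp46a1. Roles were set by family or by list, so Cyp2c70, described below as a bile acid enzyme, counts with the drug families. Members for vitamin D, retinoic acid, sterol synthesis and steroid hormones were few and mostly weak. Those under the minimum were the pseudogenes Cyp2d38-ps, Cyp2d41-ps, Cyp2c53-ps and Cyp4f41-ps, and Cyp2c55, Cyp2c69, Cyp2d11, Cyp2a22, Cyp2ab1, Cyp2b10, Cyp2g1, Cyp4a31, Cyp4x1, Cyp17a1, Cyp21a1 and Cyp27b1, each with 2 to 15 UMIs. Cyp2b10, known for its induction by phenobarbital, had 7 UMIs in all.

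The sequence before the transcription start was compared between the hepatocyte and the other-cell members. RefSeq promoters (GRCm38.p6) were at hand for 50 of the 72 members, and the 250 bases before the start were searched on both strands for 5 motifs chosen after the levels were known. The TATA box was searched as TATAAA and the GC box as GGGCGG. The core that the aryl hydrocarbon receptor binds was searched as GCGTG, the core that many nuclear receptors bind as AGGTCA, and a part of the sites of the hepatocyte factor HNF1 as GTTAAT. Matches of different motifs could overlap. Of the 28 hepatocyte members with an entry, 15 (53.6%) held TATAAA, against 12.4% of all 32851 promoters. Of the 9 other-cell members 2 held it. GCGTG stood in 2 of the 28 and 5 of the 9 (28.2% of all promoters), and GGGCGG in 5 of the 28 and 5 of the 9 (32.7% of all). AGGTCA was found in 7 of the 28 and 0 of the 9 (14.02% of all), and GTTAAT in 4 of the 28 and 0 of the 9 (6.43% of all). CpG dinucleotides had a median of 1 per 250 bases in the hepatocyte members, 3 in the other-cell members and 6 over all promoters. These counts are descriptions of letters in a window, and the sets are small.

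The bases before the start are shown for 8 chosen members. Cyp2c29 and Cyp2f2 come from opposite ends of the hepatocyte axis described below. The neighbours Cyp1a2 and Cyp1a1 are a hepatocyte and an endothelial gene. Cyp1b1, Cyp4b1, Cyp20a1 and Cyp4f18 were highest in other cells. Each piece has 150 bases, 5′ to 3′ on the gene's strand, GRCm38, and ends at the RefSeq start or, where GENCODE vM21 begins the first exon earlier, before that exon. Capitals mark matches of the motifs above on either strand.
Cyp2c29, chr19:39286924-39287073, plus strand: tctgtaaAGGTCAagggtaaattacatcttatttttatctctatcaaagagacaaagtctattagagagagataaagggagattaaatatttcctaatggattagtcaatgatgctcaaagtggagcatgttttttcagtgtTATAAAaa
Cyp2f2, chr7:27119759-27119908, plus strand: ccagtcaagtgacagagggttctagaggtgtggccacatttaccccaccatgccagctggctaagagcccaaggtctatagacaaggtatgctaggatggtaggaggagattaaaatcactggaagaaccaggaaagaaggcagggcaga
Cyp1a2, chr9:57683704-57683853, minus strand: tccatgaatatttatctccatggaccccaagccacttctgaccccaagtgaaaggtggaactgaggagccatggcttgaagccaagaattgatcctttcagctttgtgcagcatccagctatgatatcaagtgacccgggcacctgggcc
Cyp1a1, chr9:57697463-57697612, plus strand: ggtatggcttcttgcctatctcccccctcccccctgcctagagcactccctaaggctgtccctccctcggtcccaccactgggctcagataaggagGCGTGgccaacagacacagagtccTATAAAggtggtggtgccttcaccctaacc
Cyp1b1, chr17:79715062-79715211, minus strand: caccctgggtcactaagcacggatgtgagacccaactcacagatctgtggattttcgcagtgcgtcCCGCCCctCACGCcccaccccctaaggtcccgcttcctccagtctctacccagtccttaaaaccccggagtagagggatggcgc
Cyp4b1, chr4:115647724-115647873, minus strand: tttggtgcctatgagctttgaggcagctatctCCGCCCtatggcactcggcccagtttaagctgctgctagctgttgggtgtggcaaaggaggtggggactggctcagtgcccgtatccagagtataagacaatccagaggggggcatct
Cyp20a1, chr1:60343150-60343299, plus strand: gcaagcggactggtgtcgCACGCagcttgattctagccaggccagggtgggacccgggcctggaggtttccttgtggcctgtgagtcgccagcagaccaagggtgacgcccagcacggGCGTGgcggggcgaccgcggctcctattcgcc
Cyp4f18, chr8:72009627-72009776, minus strand: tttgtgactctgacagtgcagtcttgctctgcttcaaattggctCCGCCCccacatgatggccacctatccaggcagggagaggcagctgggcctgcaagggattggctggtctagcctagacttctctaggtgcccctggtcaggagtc
The piece of Cyp2c29 holds AGGTCA and, near its end, TATAAA, and that of Cyp1a1 holds TATAAA and GCGTG, while the pieces of Cyp2f2 and Cyp1a2 hold no match. In the 250-base windows counted above, however, Cyp1a2 did hold TATAAA and Cyp2f2 AGGTCA, outside the pieces shown, so the pieces show no contrast of Cyp1a1 with Cyp1a2 in the TATA box. For Cyp1a2, 48 bases before the RefSeq start were left out as exon. The piece of Cyp1a1 lies before the RefSeq start but inside the longer GENCODE gene, outside its exons. A piece of Cyp2e1, a central gene like Cyp2c29, is not shown. It held no match, while the 250-base window of Cyp2e1 held TATAAA.

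The leading hepatocyte gene was Cyp3a11, the main mouse steroid and drug oxidase of family 3, at 3016 CPM (2930 to 3103). Cyp2e1, which oxidises ethanol and acetone, stood at 2772 CPM (2690 to 2855). Cyp2f2, known for the oxidation of naphthalene, stood at 1038 CPM (988 to 1090). Cyp2c29 reached 907 CPM (861 to 955), and these 4 together held 48.7% of the member UMIs of hepatocyte-like cells. Below them came Cyp2d9 (800 CPM), Cyp2c50 (725 CPM) and Cyp1a2 (585 CPM), an oxidase of caffeine and arylamines. Cyp2c70, which hydroxylates bile acids into the muricholic acids of rodents, reached 430 CPM. Cyp2d10, Cyp2a5, Cyp3a25, Cyp2d26, Cyp2a12 and Cyp2j5 followed between 264 and 421 CPM. The remaining 12 hepatocyte genes of the drug families ran from Cyp2c37 at 256 CPM down to Cyp2c40 at 18.4 CPM.

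Member UMIs were unevenly spread over the hepatocyte-like cells. A cell held a median of 11.5 member UMIs, with a range from 0 to 1136, and 6 of the 228 cells held none. The 20 cells with most held 52.2% of all member UMIs of the class and the 50 with most held 86.5%. The median depth was 2700.5 UMIs per cell, and levels from summed UMIs rest mainly on the deeper cells. Members made up a median of 0.750% of a cell's UMIs, with a range from 0 to 4.25%. The summed level of 15886 CPM lies above that median and is not the level of a typical cell.

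The same members had UMIs in nearly all other classes of replicate 1. Cyp3a11 had a UMI in 476 of 2864 sinusoidal endothelial-like cells (16.6%, median depth 4870 UMIs), 372 of 2416 Kupffer-like cells (15.4%, 3859.5 UMIs) and 29 of 225 T-like cells (12.9%, 3374 UMIs). In stellate-like cells of replicate 2 it had a UMI in 24 of 2329 cells (1.03%, 5009 UMIs). After each cell was thinned to 1000 UMIs, which left out 128 endothelial, 222 Kupffer and 5 T-like cells, the shares were 4.57%, 4.97%, 4.55% and 0.172%. The same share in hepatocyte-like cells was 68.4%, and 57.4% after thinning of 176 cells. Endothelial cells, macrophages and T cells thus had Cyp3a11 at a like low share, and no sinusoidal endothelial-like cell held more than 3 of its UMIs.

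To set a scale for these UMIs, 20 hepatocyte genes outside the family were used (fibrinogens, Gc, Hpx, Ahsg, Cps1 and others). They gave each class a hepatocyte RNA share, its summed CPM of these genes relative to hepatocyte-like cells. The share was 1.20% in sinusoidal endothelial-like, 1.02% in Kupffer-like, 1.40% in T-like and 0.371% in stellate-like cells. A member's UMIs in a class were then set against those this share would bring along, observed over expected. For Cyp3a11 the ratio was 0.998 (0.915 to 1.09) in sinusoidal endothelial-like cells, 1.31 (1.19 to 1.44) in Kupffer-like cells and 0.899 (0.623 to 1.26) in T-like cells. The interval held 1 in sinusoidal endothelial-like and T-like cells and lay above 1 in Kupffer-like cells. Whether these UMIs were background or expression was not tested. Over the hepatocyte members with at least 10 expected UMIs the median ratio was 0.692 in sinusoidal endothelial-like (30 members), 0.740 in Kupffer-like (28) and 0.899 in T-like cells (5). It was lower in cholangiocyte-like (0.203, 29 members) and stellate-like cells (0.213, 19). With few members, it was 1.06 in vascular endothelial-like (3) and 2.80 in portal fibroblast-like cells (2). Over all classes the median was 0.572, and 58 of 123 pairs of member and class lay between 0.5 and 2.

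Single hepatocyte members lay on both sides of this scale. Cyp2f2 was at 1.20 in sinusoidal endothelial-like and 1.35 in Kupffer-like cells. Cyp2e1 was at 0.356 and 0.404, Cyp2c29 at 0.402 and 0.657, and Cyp1a2 at 0.451 and 0.648 in the same classes. Cyp2f2 was the portal gene and the other 3 were central genes of the hepatocyte axis described below. The list genes themselves ran from 0.534 (Hpd) to 1.84 (Itih3) in sinusoidal endothelial-like cells. In cholangiocyte-like cells the share was 8.21%, but a single list gene, Ambp, stood at 13.5-fold its expected value there and the median of the 20 ratios gave 3.19%. For the same reason, with Itih3 63.1-fold above expected, the share of stellate-like cells was 0.197% by the median. By the median the expected values of these 2 classes would be lower and the ratios of members higher.

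**Figure D2:**
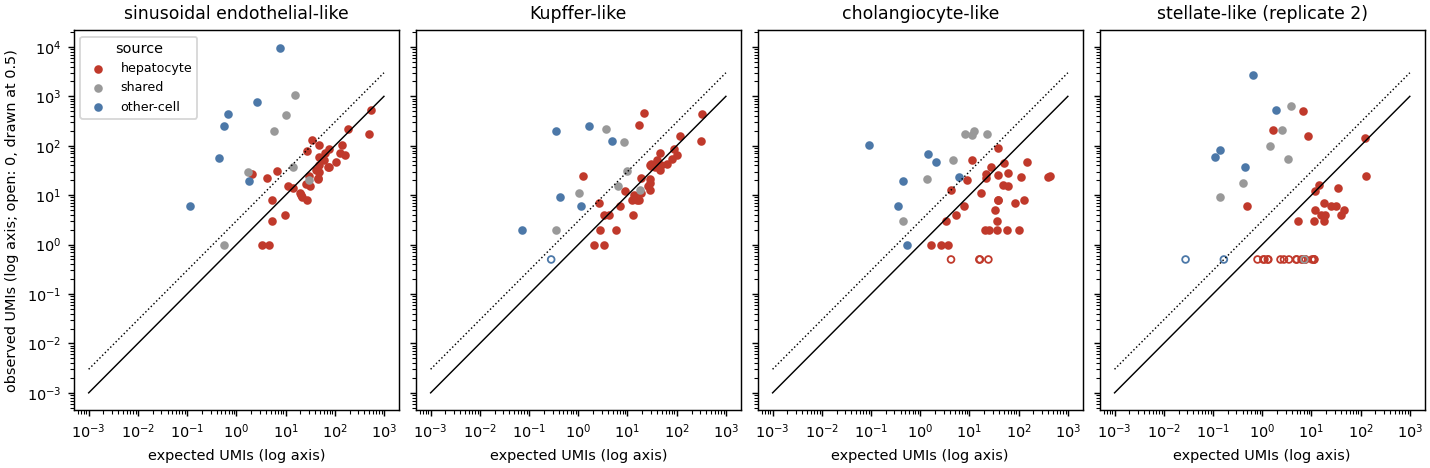
Observed UMIs of each P450 gene against the UMIs expected from the hepatocyte RNA of the class, in 4 classes, both on log axes; the solid line is equality, the dotted line 3-fold, and open points are genes with 0 UMIs drawn at 0.5. Genes with 0 UMIs in hepatocyte-like cells (Cyp1b1, Cyp4f18, Cyp2c65 and Cyp11a1) have no expected value and are not drawn. Most hepatocyte genes lie near or under the line in sinusoidal endothelial-like and Kupffer-like cells, with Cyp3a11 at 0.998 in the former, while most other-cell genes lie above the dotted line.

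A member was called above the hepatocyte RNA level in a class if it had at least 10 UMIs and at least 3-fold its expected UMIs. This held for 27 of the 56 members in at least 1 class (48.2%, against 95.4% of all genes), and for 105 of 728 pairs of member and class (14.4%, against 47.5% of pairs over all genes). The numbers by class were 15 members in sinusoidal endothelial-like, 14 in stellate-like, 14 in cholangiocyte-like, 13 in mesothelial-like, 12 in Kupffer-like, 9 in monocyte or conventional dendritic-like, 8 in vascular endothelial-like, 8 in portal fibroblast-like, 5 in T-like and at most 2 in each of the other 4 classes. Since the expected UMIs grow with the hepatocyte level, a hepatocyte gene rarely passes this rule. The shares of members and of all genes therefore cannot be compared directly. The rule takes account of hepatocyte RNA alone, and Cyp4b1 passed it in 12 classes. In plasmacytoid dendritic-like cells the 8 sinusoidal endothelial markers stood at 8860 CPM with a Cyp4b1 UMI and 423 CPM without. They stood at 3759 and 440 CPM in monocyte or conventional dendritic-like and at 1845 and 1069 CPM in stellate-like cells. The part of endothelial RNA in the numbers by class was not tested.

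Among the members of other cells, Cyp4b1, a family 4 member known from lung and kidney that oxidises short fatty acids and furans, was the most read outside hepatocyte-like cells, with 9726 UMIs in sinusoidal endothelial-like cells. Its level there was 657 CPM (644 to 670) with a UMI in 2397 of 2864 cells (83.7%, 48.1% after thinning). It was 285 CPM in lymphatic and 170 CPM in vascular endothelial-like cells, 45.0 CPM in stellate-like, 43.2 CPM in hepatocyte-like and 11.3 CPM in Kupffer-like cells. The sinusoidal level was 15.2-fold (12.0 to 19.6) above that of hepatocyte-like cells. In Kupffer-like cells 4.26% had a UMI, 1.19% after thinning, and whether this share was background was not tested.

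Cyp4b1 was also read at 184 CPM in B-like, 82.6 CPM in T-like and 74.0 CPM in plasmacytoid dendritic-like cells, in 10 of 43, 19 of 225 and 4 of 41 cells. T-like cells with a Cyp4b1 UMI held the 8 sinusoidal endothelial markers at 11673 CPM, against 122.6 CPM in T-like cells without one. In B-like cells the same markers stood at 10253 against 300.5 CPM, and in hepatocyte-like cells at 7639 against 456 CPM. In stellate-like cells the difference was smaller, 1845 against 1069 CPM, with Cyp4b1 in 442 of 2329 cells (18.98%, 4.12% after thinning). In T-like, B-like and hepatocyte-like cells a Cyp4b1 UMI thus went with sinusoidal endothelial RNA in the same cells, a look taken after the levels were seen. The part of that RNA in the levels was not tested.

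Cyp1a1, the classical target of the aryl hydrocarbon receptor (Ahr) that oxidises polycyclic hydrocarbons, was highest in vascular endothelial-like cells at 705 CPM (661 to 753), with a UMI in 92 of 148 cells (62.2%, 37.2% after thinning). It was 29.8 CPM in sinusoidal endothelial-like cells and 3.81 CPM in hepatocyte-like cells, where 2 cells held all 6 UMIs. Of its 442 UMIs in sinusoidal endothelial-like cells, 391 lay in 1 cluster whose name was not stable, as described below. In stellate-like cells 0 of 2329 cells had a UMI, which allows a level of up to 0.255 CPM (3 UMIs), and T-like, portal fibroblast-like and mesothelial-like cells held 0 UMIs too. B-like and neutrophil-like cells showed 45.9 and 60.7 CPM, each from a single cell. Its gene (chromosome 9, 57687928 to 57703824, plus strand, GRCm38) lies beside Cyp1a2 (57676937 to 57683703, minus strand). Cyp1a2 was read at 585 CPM in hepatocyte-like cells. It lay under its expected hepatocyte RNA in sinusoidal endothelial-like and Kupffer-like cells, as given above, and in stellate-like cells (6 UMIs against 25.6 expected). The levels of Cyp1a1 did not run with those of its receptor: Ahr was at 61.4 CPM in vascular endothelial-like, 125 CPM in sinusoidal endothelial-like, 130 CPM in monocyte or conventional dendritic-like and 46.4 CPM in hepatocyte-like cells.

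Within the sinusoidal endothelial-like class Cyp1a1 and Cyp1b1 were unevenly spread. The contrasts between clusters were chosen after seeing values, though the clusters were made without P450 genes. A cluster of 419 cells was led by Wnt2 and Wnt9b, with Wnt9b at 215 CPM against 3.86 CPM and Vwf at 344 against 3.06 CPM in the other 2445 cells. There Cyp1a1 stood at 164 CPM with a UMI in 76 of 419 cells (18.1%), against 4.10 CPM and 20 of 2445 cells (0.818%), a 40.02-fold difference (29.8 to 54.7). Cyp1b1, which oxidises estradiol and polycyclic hydrocarbons, had 99 UMIs in 44 cells of this cluster (41.6 CPM) and 1 UMI in the others, a ratio of 517 (90.6 to 20614). Cyp2j9 stood at 7.56 against 3.06 CPM. Of 22 members read well enough, these 3 were at least 2-fold higher (all genes: 2.11%), Cyp3a25, Cyp2e1 and Cyp2d26 were at least 2-fold lower (all genes: 2.79%) and 16 lay within 2-fold. The lower members were hepatocyte genes with 5, 14 and 4 UMIs in the cluster, the interval of Cyp2d26 (0.116 to 1.21) passed 1, and the hepatocyte RNA list was lower there too, at 358 against 453 CPM. Cyp4b1 was at 625 against 663 CPM, a ratio of 0.943 (0.892 to 0.996). The name of the cluster of 419 cells was not stable. With doublets kept, a cluster of 355 cells led by Wnt2 and Wnt9b was again named sinusoidal endothelial-like. At resolution 0.5 and 2, clusters of 184 and 153 cells led by Wnt9b and Vwf stayed unnamed. So did clusters of 148 cells with the stricter cell filter and 146 cells without the highest 5% of doublet scores.

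Vascular endothelial-like cells stood 172-fold (130 to 233) above the same 2445 sinusoidal cells in Cyp1a1. Cyp4b1 went the other way, at 170 against 663 CPM, a ratio of 0.257 (0.224 to 0.294). Of 20 members read well enough, Cyp1a1 was at least 2-fold higher in vascular cells (all genes: 7.07%), and Cyp4b1, Cyp27a1 and Cyp2c50 were at least 2-fold lower (all genes: 10.9%). Cyp4b1 thus was the leading member of the sinusoidal and Cyp1a1 of the vascular endothelial-like cells. Cyp27a1 and Cyp2c50 had 2 and 3 UMIs in the vascular cells, and their intervals (0.0324 to 1.02 and 0.0942 to 1.44) passed 1. The hepatocyte RNA list was at 280 CPM in the vascular and 453 CPM in the sinusoidal cells, and its part in these 2 values was not tested.

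**Figure D3:**
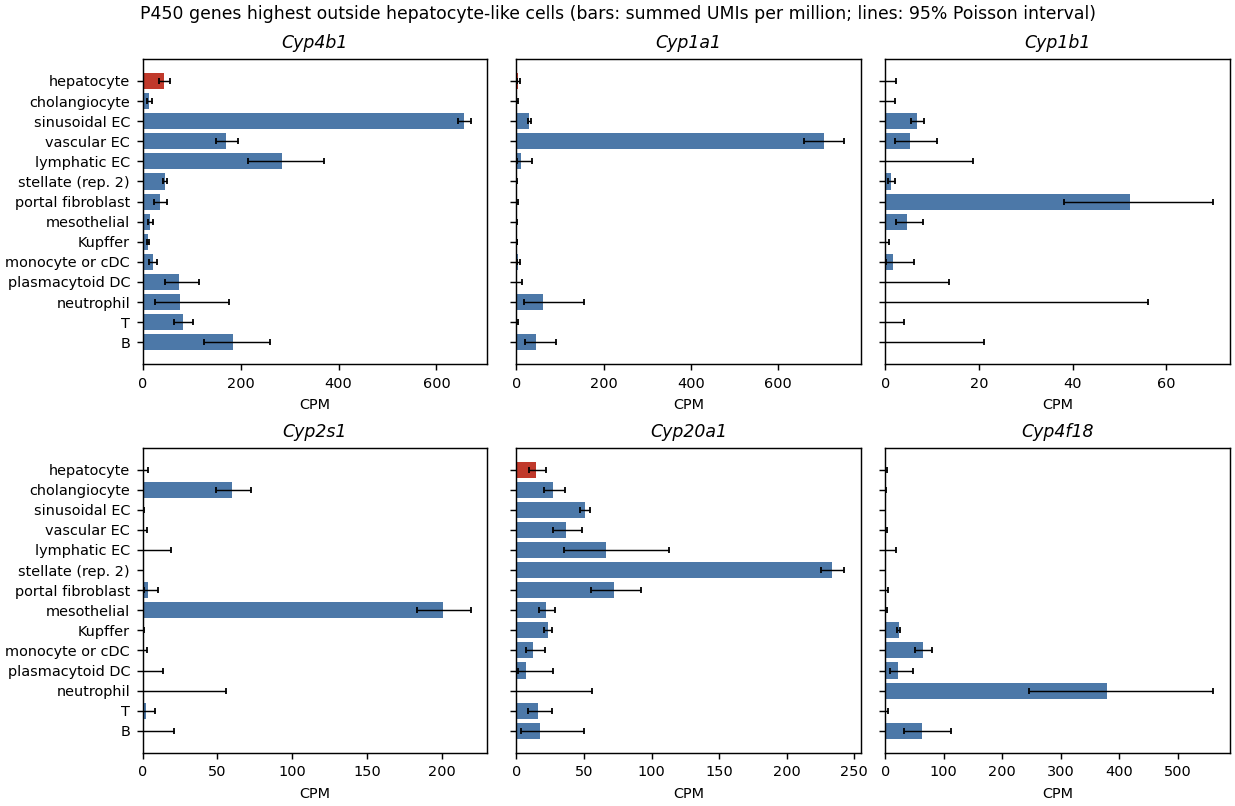
CPM of 6 P450 genes that are highest outside hepatocyte-like cells, by class, with 95% Poisson intervals of the summed UMIs as lines (EC, endothelial cells; DC, dendritic cells; hepatocyte bars in red). Each gene peaks in another class: Cyp4b1 in sinusoidal EC (657 CPM), Cyp1a1 in vascular EC (705 CPM), Cyp1b1 in portal fibroblasts (52.3 CPM), Cyp2s1 in mesothelial cells (201 CPM), Cyp20a1 in stellate cells (234 CPM) and Cyp4f18 in neutrophils (380 CPM).

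Outside the endothelium, Cyp1b1 was highest in portal fibroblast-like cells at 52.3 CPM (38.1 to 70.0, 45 UMIs in 21 of 125 cells). It had 0 UMIs in hepatocyte-like cells, so its level there was at least 27.4-fold lower, by a floor of 3 UMIs per class. Stellate-like cells held it at 1.27 CPM, all 15 UMIs in the cluster with more Podn described below. Cyp20a1, an orphan member with no assigned substrate, was the leading P450 gene of stellate-like cells at 234 CPM (225 to 243), with a UMI in 1508 of 2329 cells (64.7%, 21.5% after thinning). It was 72.1 CPM in portal fibroblast-like, 50.8 CPM in sinusoidal endothelial-like, 23.5 CPM in Kupffer-like and 14.6 CPM in hepatocyte-like cells, 16-fold (10.6 to 25.3) under the stellate level. Since nearly all stellate-like cells came from replicate 2, the 10 of replicate 1 were read alone: they held 10 UMIs of Cyp20a1, or 290 CPM (139 to 534). A high level was thus seen in the stellate-like cells of both libraries, though in replicate 1 it rests on 10 UMIs. Without replicate 2 Cyp20a1 was still an other-cell gene. That setting leaves out the stellate class, so the call then rests on other classes and says nothing of stellate-like cells.

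Cyp2s1, known from epithelia, was a gene of mesothelial-like cells, at 201 CPM (183 to 219) with a UMI in 129 of 179 cells (72.1%, 14.5% after thinning, median depth 11917 UMIs). Cholangiocyte-like cells came next with 59.8 CPM (48.8 to 72.5) in 25 of 131 cells. Stellate-like cells held 0 UMIs, hepatocyte-like cells 1 and sinusoidal endothelial-like cells 6. Both classes that carried it line a surface, the capsule or the bile ducts.

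Cholangiocyte-like cells held Cyp39a1, an oxysterol hydroxylase, at 40.1 CPM (31.2 to 50.7, 45 of 131 cells). It was lower in portal fibroblast-like (18.6 CPM), mesothelial-like (13.7 CPM) and hepatocyte-like cells (10.17 CPM), where it is best known. Cyp2c65, known from the intestine, had all of its 23 UMIs in 9 cholangiocyte-like cells (13.4 CPM) and 0 in every other class, a level at least 7.0-fold above hepatocyte-like cells by the floor of 3 UMIs. Cyp2j9 was an other-cell gene only barely, with 5.09 CPM in stellate-like against 2.54 CPM (4 UMIs) in hepatocyte-like cells, and it was shared under 6 of the 11 settings tried.

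Within the Cyp4f group, known for the inactivation of leukotrienes and other eicosanoids, Cyp4f18 and Cyp4f16 were other-cell genes read in myeloid cells. Cyp4f15 was a hepatocyte gene, and Cyp4f13, Cyp4f14 and Cyp4f17 were shared. Cyp4f18, known as the leukotriene B4 hydroxylase of mouse neutrophils, was at 380 CPM (246 to 560) in neutrophil-like cells, 25 UMIs in 14 of 27 cells. It was 64.6 CPM in monocyte or conventional dendritic-like (44 of 144 cells), 63.1 CPM in B-like and 22.9 CPM in Kupffer-like cells (212 of 2416). It had 0 UMIs in hepatocyte-like, sinusoidal endothelial-like, stellate-like and T-like cells, so its neutrophil level was at least 199-fold above that of hepatocyte-like cells by the floor of 3 UMIs. Cyp4f16 was spread more evenly: 25.2 CPM in monocyte or conventional dendritic-like, 18.5 CPM in Kupffer-like, 17.02 CPM in sinusoidal endothelial-like and 3.18 CPM in hepatocyte-like cells. All 3 classes were above hepatocyte-like cells, and the intervals of the first and second (16.99 to 35.9 and 16.02 to 21.2 CPM) overlapped.

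Other members were read both in hepatocyte-like and in other cells. Cyp2d22 differed from the rest of its group, with 114 CPM in cholangiocyte-like, 89.0 CPM in hepatocyte-like, 71.4 CPM in sinusoidal endothelial-like, 55.7 CPM in mesothelial-like and 55.4 CPM in stellate-like cells, but 2.85 CPM in Kupffer-like cells. In sinusoidal endothelial-like cells it was 66.7-fold above the UMIs expected from hepatocyte RNA, while Cyp2d9, its hepatocyte relative, was at 0.722. Cyp2j6 stood at 98.7 CPM in cholangiocyte-like, 57.8 CPM in hepatocyte-like, 28.7 CPM in sinusoidal endothelial-like and 17.9 CPM in stellate-like cells. Cyp51, the lanosterol demethylase of cholesterol synthesis that nearly all cells need, was at 95.2 CPM in cholangiocyte-like, 78.2 CPM in hepatocyte-like, 30.2 CPM in monocyte or conventional dendritic-like and 4.50 CPM in stellate-like cells. Within the Cyp4f group Cyp4f14 was high in hepatocyte-like (165 CPM) and cholangiocyte-like cells (98.1 CPM) and had at most 20 UMIs in any other class. Cyp4f13 was even, with 33.1 CPM in hepatocyte-like, 29.6 CPM in cholangiocyte-like and 20.1 CPM in Kupffer-like cells. The weaker Cyp4f17 stood at 12.2 CPM in cholangiocyte-like and 9.54 CPM in hepatocyte-like cells.

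The bile acid enzymes differed among themselves. Cyp7a1, the rate-limiting enzyme of the classical pathway, was at 54.0 CPM (43.2 to 66.8) in hepatocyte-like cells, from 85 UMIs in 26 cells. It had at most 6 UMIs in any other class (3.48 CPM in cholangiocyte-like cells), though 0 UMIs in neutrophil-like cells still allow 45.6 CPM. Cyp8b1, the sterol 12-hydroxylase that sets the cholic acid share, was at 144 CPM (126 to 164), and Cyp7b1, the oxysterol hydroxylase of the alternative pathway, at 266 CPM (241 to 293). Cyp27a1, the mitochondrial sterol 27-hydroxylase, was at 156 CPM (137 to 177) in hepatocyte-like cells and was read in many other classes: 63.9 CPM in portal fibroblast-like, 48.1 CPM in plasmacytoid dendritic-like, 47.8 CPM in monocyte or conventional dendritic-like, 43.0 CPM in stellate-like (439 of 2329 cells) and 24.7 CPM in Kupffer-like cells. It was 74.3-fold above expected hepatocyte RNA in stellate-like and 15.5-fold in Kupffer-like cells. Its call as a hepatocyte gene was lost under a 3-fold rule and when every cell was counted equally. Cyp46a1, the cholesterol 24-hydroxylase of brain, had 21 UMIs in all.

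Cyp8b1 also had 15 UMIs in 8 of the 144 monocyte or conventional dendritic-like cells (12.6 CPM), 11.1-fold above the expected hepatocyte RNA. These cells were looked at after the value was seen. All 8 held Clec9a and 7 held Xcr1, markers of cross-presenting dendritic cells, while 40 cells of the class held Clec9a and 15 held Xcr1. No cell with Cyp8b1 held more than 6 UMIs of Alb.

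Among stellate-like cells of replicate 2, 2 clusters were compared, again after values were seen. One of 1205 cells had more Podn (255 against 60.9 CPM) and Adamtsl2 (439 against 190 CPM), the other of 1124 cells more Ngfr (186 against 41.5 CPM). Cyp27a1 stood at 60.2 CPM in the former and 26.2 CPM in the latter, a ratio of 2.29 (1.89 to 2.79), with a UMI in 24.5% and 12.8% of cells. Cyp2e1 stood at 19.7 and 5.22 CPM, a ratio of 3.78 (2.52 to 5.82), with a UMI in 4.56% and 2.49% of cells. Alb, a marker of hepatocyte RNA, was at 25.9 and 30.8 CPM in the same clusters. These were the only members of 12 read well enough that were at least 2-fold higher (all genes: 1.03%), 0 were at least 2-fold lower (all genes: 0.985%), and Cyp20a1 (223 and 244 CPM) and Cyp4b1 (43.5 and 46.4 CPM) lay close to each other in both. Replicate 1 held too few stellate-like cells for the same comparison.

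Cyp2e1 was above the hepatocyte RNA level in portal fibroblast-like cells too, with 108 UMIs in 29 of 125 cells (126 CPM, 103 to 152), 4.92-fold (4.04 to 5.94) the expected UMIs. Cyp3a11, with the higher hepatocyte level, was at 0.670 of its expected UMIs in the same cells. In stellate-like cells Cyp2e1 was at 1.21 (1.02 to 1.42) and Cyp3a11 at 0.182. These ratios depended on the list: with the share by the median they were 2.27 and 0.343, and with 6 other hepatocyte genes (Alb, Apoa1, Apoc3, Ttr, Fabp1 and Apoa2), which gave a share of 0.0984%, they were 4.55 and 0.687. Cyp2e1 in stellate-like cells is thus past the 3-fold rule only with the last list. A change of list scales both genes alike, so their order could not differ between the 3 scales. Of the other hepatocyte members, Cyp4v3, a fatty acid hydroxylase known from the retina, was 20.6-fold above expected in Kupffer-like cells (41.4 CPM), and Cyp2c23, an arachidonic acid epoxygenase, 9.45-fold in mesothelial-like cells (12.1 CPM). Cyp2u1, a hydroxylase of long fatty acids, was read at 37.5 CPM in hepatocyte-like cells and at 17.3 CPM in stellate-like ones.

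The remaining roles had few members. Cyp26a1, the retinoic acid hydroxylase of liver, was at 24.2 CPM (17.1 to 33.2) in hepatocyte-like cells and at 1.49 CPM in sinusoidal endothelial-like cells, and had 0 UMIs in stellate-like cells, the class that stores retinoids, which allows up to 0.255 CPM there. Cyp2r1, the vitamin D 25-hydroxylase, was at 11.4 CPM in hepatocyte-like cells (18 UMIs) and 2.30 CPM in Kupffer-like cells. Both genes passed the rule for levels above hepatocyte RNA. Cyp26a1 did so in sinusoidal endothelial-like cells, with 22 UMIs or 5.11-fold (3.20 to 7.74) the expected UMIs. Cyp2r1 did so in Kupffer-like cells (25 UMIs, 19.7-fold, 12.8 to 29.1) and sinusoidal endothelial-like cells (27 UMIs, 13.2-fold, 8.73 to 19.3). Cyp11a1, which cleaves the side chain of cholesterol, had 22 UMIs in 5 cells, 4 of them in a Kupffer-like cluster and 1 mesothelial-like, and 0 in hepatocyte-like cells. Those cells were looked at after this count was seen: all 5 held 17 to 38 UMIs of Hdc, the histidine decarboxylase of mast cells and basophils, and 1 held the mast cell proteases Cma1 (226 UMIs), Mcpt4 (209 UMIs) and Tpsb2 (156 UMIs). The 4 in the Kupffer-like cluster held 0 or 1 UMI of the Kupffer marker Clec4f, and so did not match the name of their cluster.

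Within hepatocyte-like cells the members were placed on the axis from central to portal vein by a score of 8 central and 8 portal landmark genes without any P450 gene. The 114 cells of the central side held 888970 UMIs and the 114 of the portal side 684127. A side of a score is a range and not a cell type. Of the 38 members with at least 50 UMIs in both together, 14 were at least 2-fold higher on the central side (36.8%, against 15.6% of 3653 genes), 2 on the portal side (5.26%, against 3.31%) and 22 lay within 2-fold. The median log2 ratio, central over portal, was 0.31 for members and 0.25 for all genes.

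Among the central members Cyp2c29 had 1425 UMIs on the central and 2 on the portal side, a CPM ratio of 548 (152 to 4532). Cyp2a5, the coumarin hydroxylase, had 658 and 1 UMIs, a ratio of 506 (90.6 to 20031). Cyp2e1 had 4341 and 19 UMIs, a ratio of 176 (112 to 292), and Cyp1a2 903 and 18 UMIs, a ratio of 38.6 (24.3 to 65.4). The first and second rest on 2 and 1 portal UMIs: with the floor of 3 UMIs their ratios were 366 and 169, and no order among Cyp2c29, Cyp2a5 and Cyp2e1 can be read. All 4 are known genes of the central zone. Cyp2c37 followed with 61.3, Cyp7a1 with 31.9 (8.57 to 268, from 2 portal UMIs, or 21.3 with the floor), the fatty acid hydroxylases Cyp4a14 and Cyp4a10 with 30.5 and 14.1, Cyp2c50 and Cyp2c54 with 14.1 each, Cyp2c67 with 4.23, Cyp2c68 with 2.63 and Cyp2d40 with 2.21. Cyp4b1 had a ratio of 25.4 (2 portal UMIs, 16.9 with the floor), but the sinusoidal endothelial markers ran with it, at 2410 CPM on the central and 376 CPM on the portal side.

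On the portal side Cyp2f2 had 1506 UMIs against 127, a portal over central ratio of 15.4 (12.8 to 18.6), and Cyp2u1 44 against 15, a ratio of 3.81 (2.08 to 7.37). Other high members lay between: Cyp3a11 at 1.40 central over portal, Cyp2d9 at 1.45, Cyp2c70 at 0.821, Cyp2d10 at 0.724 and Cyp3a25 at 0.815. These depended on the scale, since the hepatocyte RNA list was higher on the portal side. Per UMI of that list Cyp3a11 was at 2.52 and Cyp2d9 at 2.62, past 2-fold, and Cyp2c70 (1.48), Cyp2d10 (1.30) and Cyp3a25 (1.47) turned to the central side, while Cyp2f2 (0.117) and Cyp2u1 (0.472) stayed portal. Of the other bile acid enzymes, Cyp8b1 was at 0.960, Cyp27a1 at 1.51 and Cyp7b1 at 0.751, and at 1.73, 2.72 and 1.35 per UMI of the hepatocyte list. Cyp2c genes were split too: Cyp2c29, Cyp2c37, Cyp2c50, Cyp2c54, Cyp2c67 and Cyp2c68 were central, while Cyp2c70 and Cyp2c23 (0.706, or 1.27 per UMI of the list) lay within 2-fold on both scales.

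**Figure D4:**
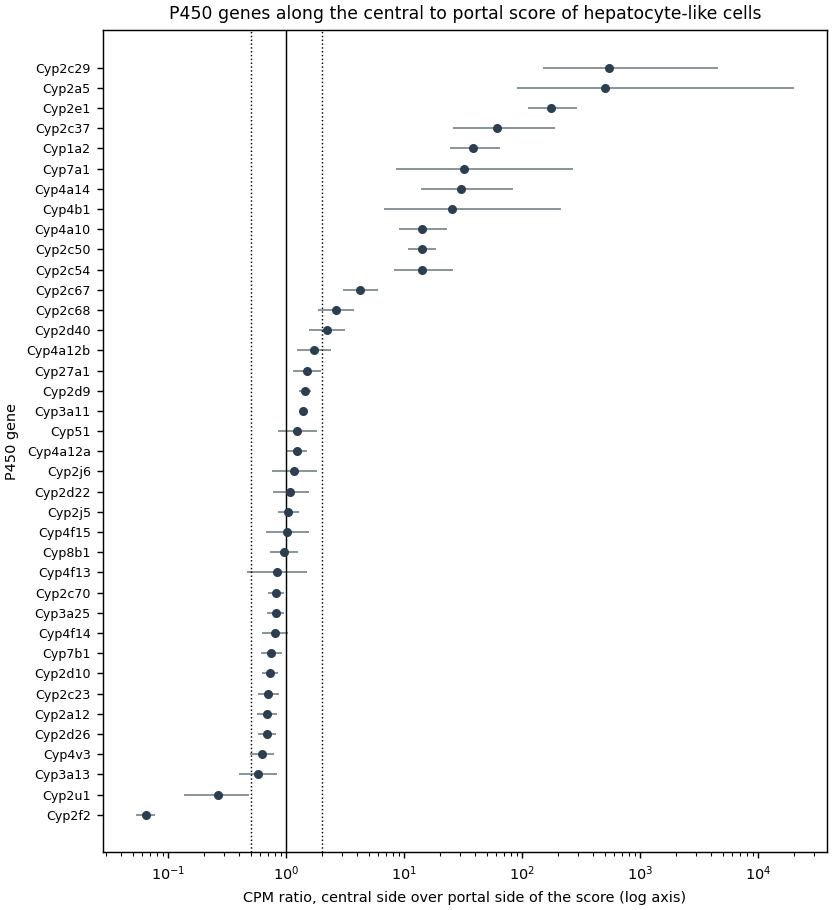
CPM ratio of the central over the portal side of the landmark score for 38 P450 genes in 228 hepatocyte-like cells (log axis), with exact 95% binomial intervals; dotted lines mark 2-fold either way. The ratios run from 548 for Cyp2c29 down to 0.0649 for Cyp2f2, and 22 genes lie between the dotted lines.

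In single cells Cyp2e1 had a UMI in 67 of 114 central and 10 of 114 portal cells (52.2% and 5.81% after thinning). Cyp2f2 had one in 32 and 84 cells (10.0% and 65.1% after thinning). Of the 70 cells with at least 10 UMIs of the 2 genes together, 32 held over 90% Cyp2e1, 31 held under 10%, and 7 lay between. Few cells held both in quantity. Cell depth and purity differed between the sides: the median was 4186.5 UMIs on the central and 1919.5 on the portal side, the hepatocyte RNA list stood at 26985 and 48586 CPM, and the Kupffer markers at 901 and 301 CPM. The number of central members was 14 also among cells with at least 3000 UMIs (55 on each side). Per UMI of the hepatocyte RNA list in place of all UMIs it was 21, with Cyp2j6, Cyp4a12a, Cyp51, Cyp3a11, Cyp2d9, Cyp27a1 and Cyp4a12b added, and 2 members stayed portal.

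**Figure D5:**
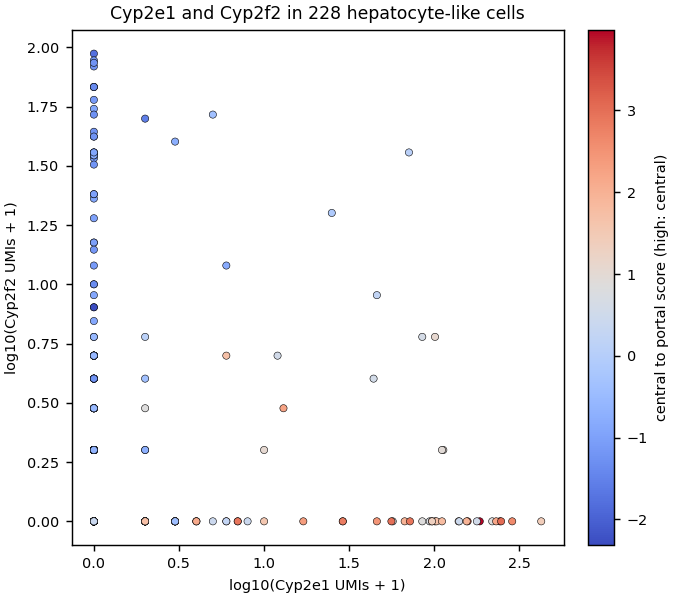
UMIs of Cyp2e1 (x axis) and Cyp2f2 (y axis) in each of 228 hepatocyte-like cells, as log10(UMIs + 1), coloured by the central to portal score, which was made without P450 genes. Most cells lie along 1 of the axes, those with Cyp2e1 in red or pale and those with Cyp2f2 in blue, and 7 of the 70 cells with at least 10 UMIs of the pair hold between 10 and 90% Cyp2e1.

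Genes that work with P450 enzymes were listed as partners. Of the 26, 10 were hepatocyte genes, 7 other-cell genes, 8 shared and 1, Ugt1a1, was under the minimum. Of all genes measured, 4.49% were hepatocyte genes and 65.6% other-cell genes by the same comparison. The partners were chosen for their ties to P450 enzymes and are not a sample of all genes. Por, the reductase that feeds the microsomal members, was shared, at 149 CPM in hepatocyte-like cells, and Fdx1, the ferredoxin of the mitochondrial members, at 289 CPM. Of the 9 electron and heme partners, 4 were hepatocyte genes, among them Cyb5a (1948 CPM), Pgrmc1 (871 CPM) and Alas1, the first enzyme of heme synthesis (287 CPM). Pgrmc2 was highest in stellate-like cells (103 against 42.6 CPM). Of the 11 regulators, Hnf4a (212 CPM), Nr1i3 (62.9 CPM) and Ppara (51.5 CPM) were hepatocyte genes, and 5 were other-cell genes, among them Ahr and the bile acid receptor Nr1h4 with 58.5 CPM in hepatocyte-like cells and 288 CPM in stellate-like ones. Of the 6 enzymes of epoxides and conjugation, Ephx2, Ugt2b5 and Sult2a8 were hepatocyte genes at 477, 762 and 735 CPM, while Ephx1 was highest in stellate-like cells, with 296 CPM against 142 CPM in the hepatocyte-like class.

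By position, 51 of the 72 members lay in 8 groups of neighbours at most 1 Mb apart (GENCODE vM21, GRCm38), and 7 of the groups held more than 1 kind of source. The largest, on chromosome 19 from 39007019 to 40187333, held 13 Cyp2c genes: 9 hepatocyte genes, the cholangiocyte gene Cyp2c65 and 3 under the minimum. On chromosome 7 from 25802475 to 27133660, the mesothelial Cyp2s1 stood beside the hepatocyte genes Cyp2a5, Cyp2a12 and Cyp2f2. On chromosome 4 from 115106323 to 115647723, the endothelial Cyp4b1 stood at the end of a row of 4 hepatocyte Cyp4a genes. The group on chromosome 5 with Cyp3a11, Cyp3a25 and Cyp3a59 was the one with hepatocyte genes alone.

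Near-identical copies limit some levels. In the last 300 bases of the transcripts, where 3′ libraries read, 8 of the 72 members shared 90-base stretches with another P450 gene. The share was 40.8% for Cyp4a12a and 43.1% for Cyp4a12b, 14.2% for Cyp2d41-ps and at most 8.53% for Cyp2c40, Cyp2c67, Cyp2c69, Cyp2d11 and Cyp2d26. The levels of Cyp4a12a (264 CPM) and Cyp4a12b (113 CPM) are therefore uncertain as single genes, since the counting could split or drop reads of the common stretch. The members highest in other cells, Cyp4b1, Cyp1a1, Cyp1b1, Cyp2s1, Cyp20a1 and Cyp4f18, shared none.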

How the data were processed

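The deposited values are UMI counts per gene and cell, 1 table for both libraries. Per the submitters' processing notes, Cell Ranger 2.1.1, Seurat 3.1 and GRCm38 were used; which cell filter the authors applied is not given in the sources used here. Cells were assigned to replicates 1 and 2 by the ending of their barcodes. Such counts depend on each transcript's 3′ end as annotated, and reads of near-identical genes may be lost in the authors' counting.

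Cells under 200 genes or over 20% mitochondrial UMIs were dropped: 597 cells of replicate 1 (8.11%) and 0 of replicate 2. The doublet caller marked only 8 cells (0.118%) of replicate 1 and 12 (0.513%) of replicate 2, and these were removed. Whether it missed doublets or they were taken out before deposit was not tested, so other doublets may remain. Clusters (2000 variable genes, 30 principal components, 15 neighbours, Leiden resolution 1) were made with scanpy 1.11.5 in Python 3.11.15, without any P450, partner or hepatocyte list gene, and named from listed markers; 127 cells stayed unnamed. UMIs were summed per class. Intervals are 95%: exact Poisson for CPM, Clopper-Pearson for shares, exact binomial for ratios (scipy 1.17.1). With 1 library per class, no test was run. The calling rules were run on simulated counts of well-read genes with strong differences and hepatocyte RNA at the expected share. That run does not show how the rules do on weak members. Members and lists were chosen with earlier results of these data known. Text names the 15 highest members in hepatocyte-like cells, every other-cell member, up to 15 members above the hepatocyte RNA level and 10 listed genes; all other members it names were named after their values were seen. The contrasts between clusters, the names of those clusters and the promoter motifs were also chosen after the values were seen. Alternatives covered the weighting of cells, the minimum count, the fold, cell and doublet filters, resolution, the hepatocyte list and single libraries. Protein sequences were not analysed here.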

Additional observations from a re-analysis of the deposited data

How the results depend on the processing

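Of 73 alternatives, 72 left the count they bear on within 1.5 times its value. The exception was the number of members higher on the portal side of the hepatocyte axis, which was 4 and not 2 when every cell counted equally, an alternative chosen after seeing the data; Cyp7b1 (central over portal 0.347) and Cyp3a13 (0.365) were added, and the cause was not tested. The number of hepatocyte genes ran from 22 (every cell counted equally) to 28 under the alternatives listed at the outset, and was 38 with classes of at least 100 cells. Other-cell genes ran from 9 to 12, with 9 without replicate 2, and pairs above the hepatocyte RNA level from 91 (without replicate 2) to 112 (other hepatocyte list). Without replicate 1 only stellate-like cells remain, so no value could be given, and the 3-fold rule is already the rule for pairs. Taken from the comparison of all classes, of 36 named members 27 kept their source under all 11 settings compared and 0 switched between hepatocyte and other-cell gene. Those that moved to or from the shared group, or under the minimum, were Cyp26a1, Cyp2u1, Cyp7a1, Cyp27a1, Cyp3a25, Cyp2j6, Cyp4f17, Cyp2c65 and Cyp2j9. With classes of at least 100 cells, whose sources the report uses, the same 10 settings (run after seeing the data) gave 29 to 38 hepatocyte genes, the lowest with every cell counted equally, and 9 to 12 other-cell genes. There 13 members changed source under any of them, and 1, the pseudogene Cyp2d37-ps, switched between hepatocyte and other-cell gene, with every cell counted equally. No paired analysis was possible because both samples belong to 1 group and no class had 20 cells in both. Depth limits the small classes most: 3 UMIs stood for 45.6 CPM in neutrophil-like cells and for 0.203 CPM in sinusoidal endothelial-like cells.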

Other observations

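Cells outside the 14 classes held members too. The 18 smooth muscle-like cells, too few for a class, had 6 UMIs of Cyp7b1 (44.0 CPM, 16.2 to 95.9), against 0.286 UMIs expected from their hepatocyte RNA, and 5 of Cyp20a1. The 127 unnamed cells, led by cell cycle genes, held Cyp4b1 at 76.6 CPM (88 UMIs), Cyp20a1 at 29.6 CPM, Cyp4v3 at 28.7 CPM, Cyp27a1 at 22.6 CPM and Cyp51 at 21.8 CPM. Cyp2r1 had 10 UMIs there (8.70 CPM), close to its level in hepatocyte-like cells, where 18 UMIs stood for 11.4 CPM. Cyp3a11 had 25 UMIs in the unnamed cells against 23.0 expected, so the most read hepatocyte member lay at the hepatocyte RNA level while those other members stood above it.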
